A study of Mus musculus with 10 samples.

Results

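Il6st, Lifr, Stat3, Zfp281, Tbx3, Tet1 and Tet2 are genes of LIF signalling and of the network that regulates pluripotency in mouse stem cells. A table of 1626 ACA sites in mouse mRNA held 8 sites in these 7 genes, 2 of them in Il6st and 1 in each of the others. A site was taken as theirs where its deposited 11-base sequence occurred in a transcript of the gene on the given chromosome and strand, within 100 nt of the deposited transcript position. For 6 of the 8 sites the position was identical, for Lifr it was 8 nt away and for Stat3 29 nt.

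Wild-type (WT) and Mettl3 knockout (KO) embryonic stem cells (ESC) were compared with embryoid bodies (EB) of each genotype; the labels write the knockout as Metll3-/-. They describe 10 polyA RNA libraries, 3 each for ESC WT and ESC KO and 2 each for EB WT and EB KO. All stem cells were kept in LIF with the GSK3 inhibitor CHIR99021 at 3 µM and the MEK inhibitor PD0325901 at 1 µM, and EB were grown from them in suspension for 9 days without LIF or the inhibitors. The number of knockout clones is not stated in the labels.

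For every group the table gives each site a single cleavage efficiency, on a scale from 0 (no transcript cut there) to 1 (all cut), and no value per library. No SD, interval or test is possible for that reason, and the depth behind each value is unknown. A difference of at least 0.10 is the size counted below, always beside the share of all listed sites that reached it. EB mix several kinds of cell, and in such bulk samples a change in which cells supply a transcript cannot be told apart from a change within each cell. The table holds no expression values, so neither the knockout nor the pluripotent state of the cells was checked.

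As background, LIF binds its receptor Lifr, which pairs with the signalling subunit Il6st (gp130); kinases bound to this pair phosphorylate Stat3, which enters the nucleus and switches on genes of the naive stem cell. Tbx3 and Zfp281 are transcription factors that regulate pluripotency, and Tet1 and Tet2 oxidise 5-methylcytosine in DNA. Mettl3 is the catalytic subunit of the complex that writes N6-methyladenosine (m6A) on mRNA. MazF, a bacterial RNase, cleaves before ACA unless m6A sits on that first A, so that methylated copies of a transcript stay whole there. The labels do not say which enzyme was used.

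The 8 sites are printed because each is the exact place measured. The lines give 30 bases of the sense strand, 5′ to 3′, with T for U; the capitals mark the ACA and the pair of bases before it, and the first A of ACA is the position measured. The capitals and the 3 bases on either side of them stand in the deposited table, and the rest is from the matched GENCODE M21 transcript.
Il6st upstream: aaccacaccagGGACAgatgattctagaga
Il6st downstream: ctgtgcatgctAGACAttcactctaccgct
Lifr: gctcacacacaGGACAtaaaggagattgat
Stat3: ggttggttgttAGACAagtgcctcctggtg
Zfp281: gatcctcagaaAGACAtagagcctagaaca
Tbx3: cttccccccaaAGACActttccccctccct
Tet1: gaattctggtcAGACAgtgaggagatctac
Tet2: cagacgtttggGGACAgtccctctaagtac

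GGACA stood at Il6st upstream, Lifr and Tet2, and the remaining 5 sites had AGACA. The latter motif made up 62.5% of these sites against 37.5% of all listed sites. The authors' table sorts sites into classes by a method that the labels do not describe. Its prefix CellRep is left out below. The 8 sites were 6 of the high class, 1 of the intermediate class (Stat3) and 1 of the low class (Tbx3).

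All 8 sites lay far from exon junctions. In the mm9 build of the table, with the A counted from 1, the Il6st sites are at positions 113295470 and 113295748 on the plus strand of chromosome 13. They fall in the 3′ UTR, 817 and 1095 nt after the end of the CDS and 278 nt from each other. The Lifr site (chromosome 15, position 7147099, plus strand) is also in the 3′ UTR, 5930 nt after the CDS and 390 nt before the end of the matched transcript. The Stat3 site (chromosome 11, position 100749694, minus strand) lies 325 nt into the 3′ UTR.

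Zfp281, Tet1 and Tet2 have their sites in the last exon but within the coding sequence. The Zfp281 site (chromosome 1, position 138524312, plus strand) is 232 nt before the end of the CDS. The distance is 400 nt for Tet1 (chromosome 10, position 62275680, minus strand) and 904 nt for Tet2 (chromosome 3, position 133130605, minus strand). The Tbx3 site (chromosome 5, position 120121860, plus strand) is in the 5′ UTR, 165 nt before the start codon in exon 1 of 7. It is thus the exception to the last exon, which held 7 of the 8 sites, against 725 (50.9%) of the 1423 listed sites with a named gene.

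The exons that hold the sites run from 1736 nt in Tbx3 to 8843 nt in Tet1. Of the named sites, 30.5% lie in an exon of 1736 nt or more. The nearest exon junction was 381 nt away in Stat3 and 6554 nt away in Lifr, the extremes of the 8, and 29.0% of the 1391 named sites in spliced transcripts were as far away as the Stat3 site or farther. The median distance was 206 nt over the named sites.

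**Figure D1:**
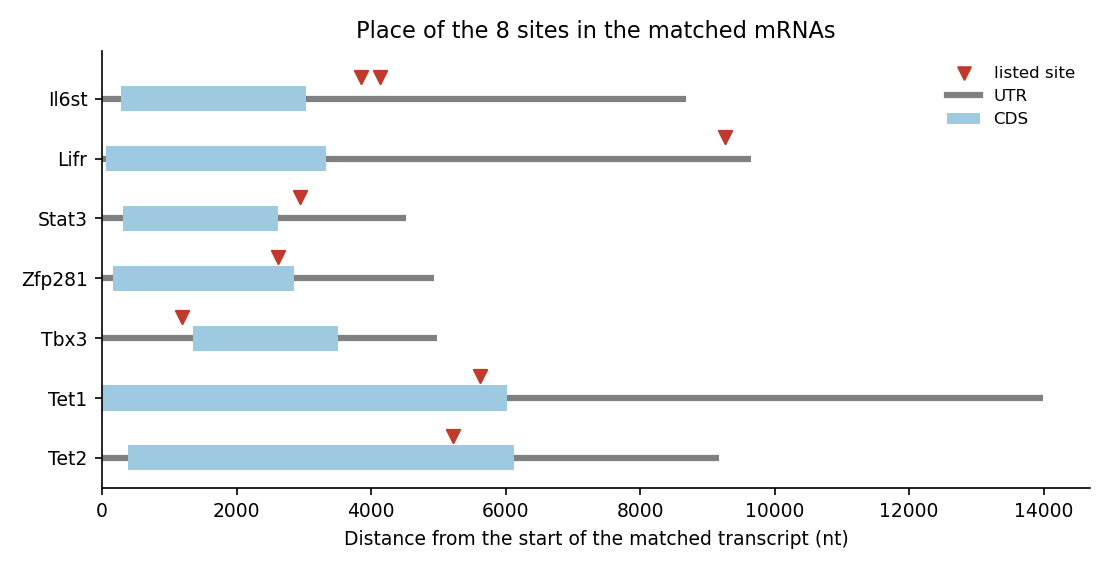
Matched mRNA of each gene to scale, with distance from the start of the transcript (nt) on the horizontal axis, the CDS as a blue bar, UTRs in grey and the listed sites as red triangles. Il6st, Lifr and Stat3 have their sites after the CDS, Zfp281, Tet1 and Tet2 towards its end and Tbx3 before it.

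Most of the motifs in these mRNAs were not among the listed sites. The matched Il6st transcript holds 156 copies of ACA, but ACA after other pairs of bases was not listed for any gene. It holds 21 copies of GGACA or AGACA, of which 2 were listed. Tet1 had 1 listed site of 38 such motifs, Lifr 1 of 32, Tet2 1 of 26, Zfp281 and Tbx3 1 of 14 each, and Stat3 1 of 12. The values below therefore describe single positions and not whole transcripts.

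Other ACA copies, which the same RNase could cut, stood close to several of the sites. The distance to the nearest was 5 nt for Lifr, 9 nt for Il6st upstream, 14 nt for Zfp281 and Tet2, 19 nt for Il6st downstream, 58 nt for Stat3, 59 nt for Tbx3 and 165 nt for Tet1. Another ACA stood within 30 nt of 5 of the 8 sites and of 45.8% of all named sites. Over the named sites the median efficiency with and without such a neighbour was 0.470 and 0.440 in ESC WT, and 0.833 and 0.804 in ESC KO. The part of these neighbours in the values of the 8 sites was not tested.

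Values were incomplete. In stem cells all 8 sites had a WT value and 5 a KO value, and in EB 6 had a WT value and 2 a KO value; over all listed sites the shares in that order were 78.4%, 75.3%, 79.6% and 56.5%. Zfp281 and Tet1 had all 4 values, as did 759 of the listed sites. For Lifr, Stat3 and Tet2 no KO value was given in either stage, so their dependence on Mettl3 was not measured.

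Starting with the receptor, both Il6st sites were cut far less in WT stem cells than without Mettl3, where cutting was nearly complete. Il6st upstream was at 0.0571 in WT and 0.912 in KO stem cells, and at 0.152 in EB WT. Its WT value in ESC was 0.0627 of the KO value. The difference of 0.855 was among the 13 largest of 1046 sites, itself included. Most sites as little cut in WT as this one did not behave so: among the 154 other sites within 0.05 of its ESC WT value, the median ESC KO efficiency was 0.179 and 26 reached 0.8.

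Il6st downstream was at 0.295 in ESC WT and 0.892 in ESC KO, a difference of 0.596. The 2 Il6st sites therefore differed from each other by 0.238 in WT, with the GGACA site cut less, and by 0.0199 in KO, where both were nearly fully cut. For the 112 pairs of sites that share a gene, over 90 genes and with the Il6st pair included, the median absolute difference was 0.258 in ESC WT and 0.0992 in ESC KO. The Il6st pair was thus close to the typical pair in WT and more alike than it in KO.

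The LIF-binding subunit gene Lifr had WT values alone, at 0.486 in ESC and 0.739 in EB. Stat3, which carries the signal to the nucleus, was at 0.974 in ESC WT and 0.841 in EB WT. It was among the 5 most completely cut of 1274 sites in ESC WT, itself included. A site already cut this far leaves little room for a higher value in KO. Single sites in the 3 genes of the signalling chain thus covered nearly the whole range in WT stem cells. They ran from 0.0571 at Il6st upstream to 0.974 at Stat3, with Il6st downstream at 0.295. This is a spread between sites and was not measured for the genes as a whole.

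Among the transcription factors, Zfp281, a zinc-finger protein gene, was cut to 0.382 in WT and 0.879 in KO stem cells, and to 0.524 in WT and 0.810 in KO embryoid bodies. Both KO values lay above both WT values. The T-box gene Tbx3 was at 0.549 in WT and 0.915 in KO stem cells, and at 0.718 in EB WT. Its ESC difference of 0.366 was the smallest of the 5, while 73.4% of 1046 sites had a lower one. It turned to −0.00743 when columns were centred on their medians, a step that shifts every site by −0.373. That shift is larger in size than the median difference of 0.130 over all sites. As deposited the Tbx3 difference was high for the class and region of its site. The site lies in the low class, whose median difference was 0.0309, and 2 of the 176 sites of that class were as high, itself included. In 5′ UTR sites, Tbx3 included, the median was 0.0496, with 28 of 84 reaching 0.10. The 10 of them at least 381 nt from a junction had a median of 0.146. Among these 10, the 7 AGACA sites had a median of 0.0875, and Tbx3 was the highest of the 7.

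Tet1 was at 0.288 in WT and 0.723 in KO stem cells, and at 0.348 in WT and 0.747 in KO embryoid bodies. The pair of WT values and the pair of KO values were each close together and far from the other pair. Its KO efficiency was the lowest of the 5 in ESC, and 39.5% of all ESC KO values were lower. Tet2, the other dioxygenase gene of the set, had its value in ESC WT alone, at 0.0244, the lowest of the 8; 98 of 1274 sites were lower. Low cutting that needs Mettl3 and low cutting of any other kind cannot be told apart without a KO value: of the 160 other sites within 0.05 of it that had a KO value, 17 reached 0.8 in KO and the median was 0.0913.

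**Figure D2:**
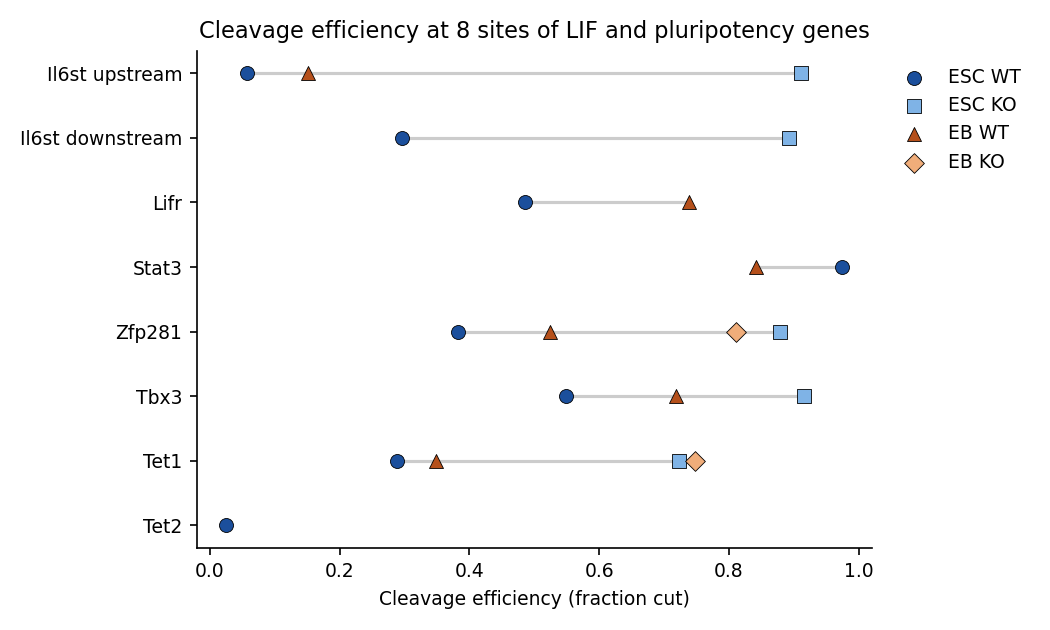
Cleavage efficiency (fraction cut, horizontal axis) of each of the 8 sites, with circles for ESC WT, squares for ESC KO, triangles for EB WT, diamonds for EB KO and a grey line over the range; a missing symbol is a missing value. KO symbols lie between 0.723 and 0.915 in all 7 cases, to the right of the WT symbols of that site.

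Ordered by ESC WT value, the sites were Tet2 (0.0244), Il6st upstream (0.0571), Tet1 (0.288), Il6st downstream (0.295), Zfp281 (0.382), Lifr (0.486), Tbx3 (0.549) and Stat3 (0.974). With no replicate values, which neighbours in this order differ beyond error cannot be said; Tet1 and Il6st downstream were nearest to each other. In ESC KO the 5 sites with a value ran from 0.723 in Tet1 to 0.915 in Tbx3. The same 5 sites ran more widely in ESC WT, from 0.0571 in Il6st upstream to 0.549 in Tbx3. Tet2 and Stat3, at the ends of the WT order, had no KO value. The ESC KO median was 0.892 over the 5 sites against 0.811 over all listed sites. The ESC WT median of the 8 was 0.339, against 0.437 over all.

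Setting KO beside WT stem cells asks where cutting depended on Mettl3. All 5 sites that had a value in each column rose in KO by at least 0.10, a size reached upward by 55.4% of all 1046 sites, and downward by 2.58%. The median of the 5 was 0.496, against 0.130 over all sites. With columns centred, 3 of the 5 were higher by that size and the median was 0.123. Among the 231 named sites at least 381 nt from a junction, 70.1% were higher by that size and the median was 0.262. By contrast, the median was 0.0505 over 292 sites within 100 nt of a junction. Il6st and the others were put forward with these differences known, and the count is a description of them.

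**Figure D3:**
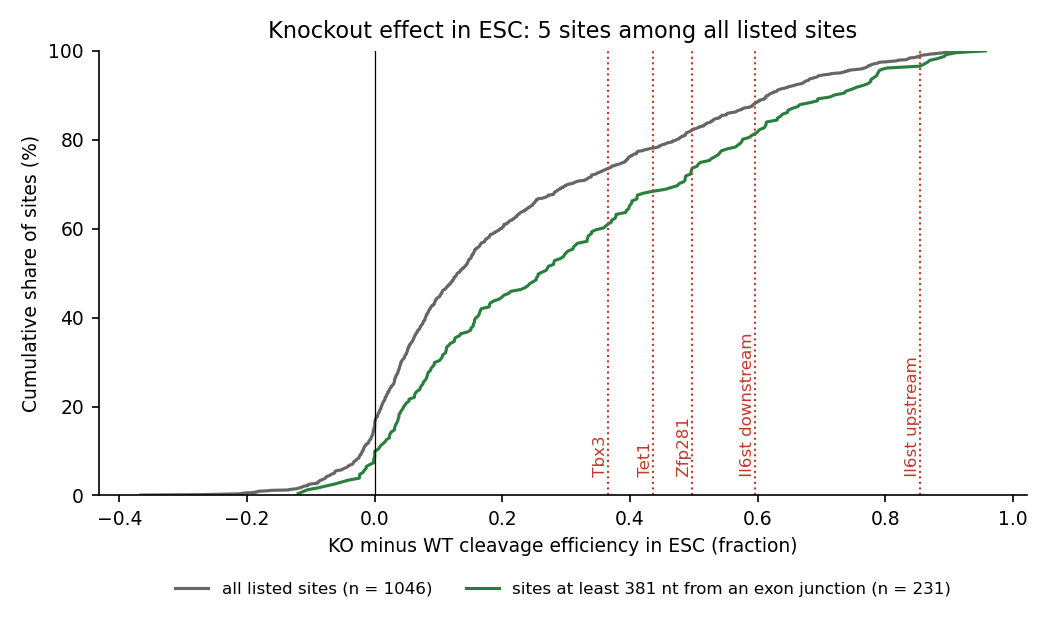
Cumulative share of sites (%, vertical axis) by KO minus WT cleavage efficiency in ESC (fraction, horizontal axis), for all 1046 sites in grey and the 231 sites at least 381 nt from an exon junction in green, with the 5 sites as red dotted lines. All 5 lines lie to the right of both medians, 0.130 and 0.262, from Tbx3 at 0.366 to Il6st upstream at 0.855.

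Beside sites of the same motif and region the order was as follows. For AGACA sites in the 3′ UTR at least 381 nt from a junction, the median difference was 0.129 and the upper quartile 0.296 (56 sites), both below Il6st downstream at 0.596. For GGACA sites placed likewise the values were 0.340 and 0.559 (79 sites), below Il6st upstream at 0.855. Zfp281 at 0.496 and Tet1 at 0.436 stood above the median of 0.242 and the upper quartile of 0.407 for such AGACA sites in the CDS (28 sites). In each of these 4 cases the site itself is counted among its peers. Other sites within 0.05 of the same ESC WT value give a different view. Of these, 8 of 154 were at least as high in ESC KO as Il6st upstream. For Il6st downstream it was 27 of 102, for Zfp281 25 of 79 and for Tbx3 16 of 68. For Tet1 it was 56 of 99, with a median of 0.804 against its own 0.723.

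**Figure D4:**
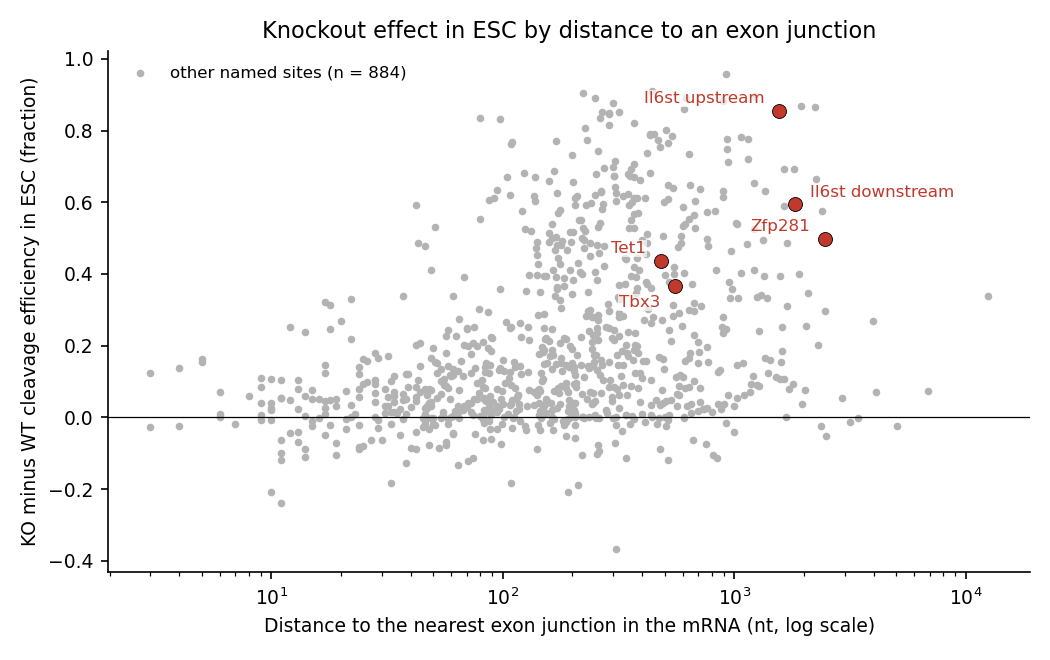
KO minus WT cleavage efficiency in ESC (fraction, vertical axis) against the distance to the nearest exon junction (nt, log axis), with 884 other named sites in grey and the 5 sites in red. Within 100 nt of a junction the median is 0.0505 over 292 sites, and the 5 red points lie between 481 nt (Tet1) and 2464 nt (Zfp281).

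In EB the same comparison could be made for Zfp281 and Tet1. Both were higher in KO by at least 0.10, a size that 41.9% of 855 sites reached upward and 5.96% downward. The difference was 0.287 in Zfp281 and 0.399 in Tet1, against a median of 0.0638 over all sites; with columns centred Tet1 alone reached 0.10. Among the 190 sites at least 381 nt from a junction 58.4% reached 0.10 upward and the median was 0.169.

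The comparison of EB with ESC in WT asks whether cutting changed as the cells left the LIF medium. Of the 6 sites with both values 5 were higher in EB and Stat3 was lower. A rise of at least 0.10 was seen in Lifr (0.253), Tbx3 (0.169) and Zfp281 (0.141), so in 3 of 6, against 26.4% of 1071 sites. Il6st upstream was 0.0944 higher and Tet1 0.0601 higher, short of that size. The median of the 6 was 0.118, and that of all sites 0.0408. With each column centred on its median 3 of the 6 were higher, Lifr alone by 0.10, and Il6st upstream and Tet1 turned to −0.00196 and −0.0363; the median was then 0.0216.

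Lifr and Stat3 stood at opposite ends. For Lifr the difference was among the 34 largest of the 1071 sites, itself included; of the 75 other sites within 0.05 of its ESC WT value, 5 rose by as much. Stat3 differed by −0.132, a fall of at least 0.10 that 5.51% of sites shared. All 55 other sites that started within 0.05 of its ESC WT value had a higher EB minus ESC difference, with a median of −0.00427. For the Stat3 site the deposited and the matched transcript positions differ by 29 nt, and it is lost if the match is held to 10 nt. For Zfp281, Tbx3 and Tet1, at 0.141, 0.169 and 0.0601, the medians of sites of like starting level were 0.118, 0.118 and 0.0492, with 35 of 78, 17 of 69 and 44 of 95 such sites as high. For Il6st upstream, at 0.0944, that median was 0.0195 and 25 of 165 sites were as high.

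**Figure D5:**
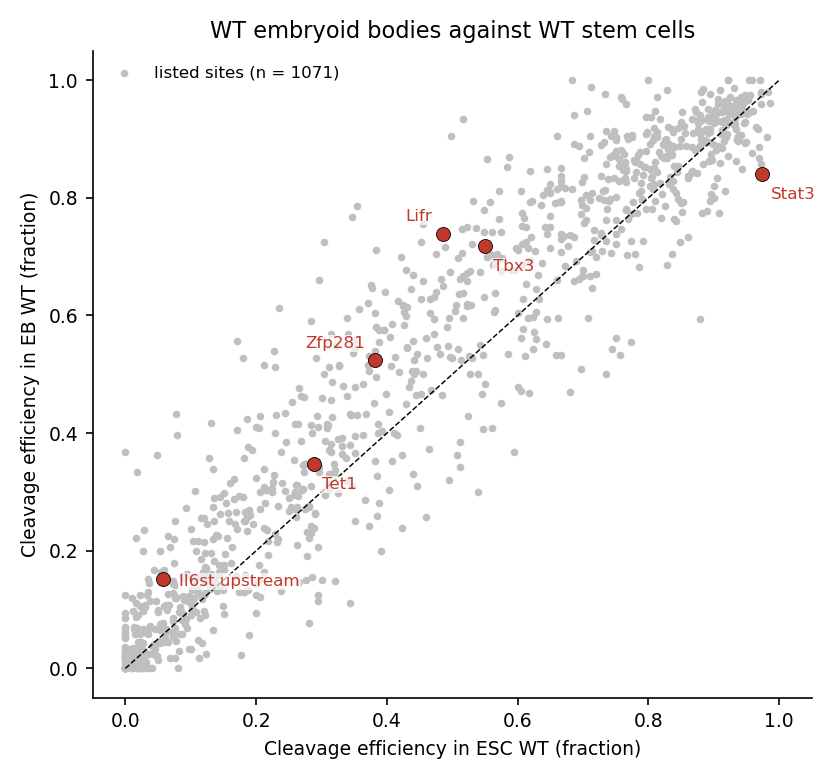
Cleavage efficiency (fraction) in EB WT on the vertical axis against ESC WT on the horizontal axis, for 1071 listed sites in grey and the 6 sites with both values in red, with a dashed line of equal values. Lifr, Tbx3, Zfp281, Tet1 and Il6st upstream lie above the line and Stat3, at 0.974 and 0.841, below it.

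As deposited, Zfp281 and Tet1 differed less between the stages in KO than in WT. Between EB and ESC in KO, Zfp281 differed by −0.0684 and Tet1 by 0.0236, so neither reached 0.10; of 845 sites 7.10% did so upward and 11.1% downward. The change of the KO effect, EB minus ESC, was −0.210 in Zfp281 and −0.0364 in Tet1. A fall of at least 0.10 in that effect, as in Zfp281, was seen at 32.0% of 759 sites, and a rise at 5.53%. In Zfp281 the smaller effect in EB joined a WT value 0.141 higher and a KO difference of −0.0684 between the stages. With columns centred, the EB minus ESC difference in Zfp281 was 0.0451 in WT and −0.0578 in KO. In Tet1 it was −0.0363 in WT and 0.0343 in KO. The stages were then no closer in KO for Zfp281, and about equally far apart in both genotypes for Tet1. This rests on a shift of −0.0963 in WT, larger in size than the median EB minus ESC difference of 0.0408 over all sites there. These comparisons share columns with the ones above and are not independent of them.

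Other genes of the pathway were taken from 3 lists: LIF receptor to STAT3, pluripotency transcription factors, and TET and DNA methylation. Beside the 7 genes these lists hold 106 symbols, of which 9 had a named site, 11 sites in all. Pou5f1, Sox2, Nanog, Klf4, Esrrb, Jak1 and Socs3 were on the lists and had no named site. Of the 9 sites with both ESC values, 6 were higher in KO by at least 0.10 and 0 lower, with a median of 0.207; of 10 in EB, 5 were higher and 0 lower by that size, 6 and 4 by any, with a median of 0.0818. Over all listed sites the upward shares were 55.4% and 41.9%.

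On the LIF list, Pias3, an inhibitor of STAT3, was measured in its 3′ UTR, with 0.549 in WT and 0.908 in KO stem cells, and 0.780 in WT and 0.943 in KO embryoid bodies. Its KO values were above its WT values in both stages. The tyrosine phosphatase gene Ptpn6 had a CDS site 65 nt from a junction, at 0.305, 0.381, 0.294 and 0.218 in the same order, with no difference of 0.10 in either stage. On the list of transcription factors, Mybl2 had a 5′ UTR site 0.148 higher in KO in ESC and −0.0238 different in EB.

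The TET and DNA methylation list held 8 sites in 6 genes. Uhrf2, a ring finger protein gene related to the DNA methylation factor Uhrf1, had a CDS site at 0.119 in WT and 0.726 in KO stem cells, and at 0.154 in WT and 0.767 in KO embryoid bodies. Like the Tet1 site it changed little between stages, while it lies 87 nt from a junction and Tet1 481 nt. A 3′ UTR site of the DNA methyltransferase gene Dnmt3a was at 0.264 in EB WT and 0.926 in EB KO, with no ESC WT value. Cxxc5 had sites 0.551 and 0.248 higher in KO in ESC and 0.428 and 0.230 higher in EB.

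Sin3a, a corepressor that binds Tet1, was 0.207 higher in KO in ESC and differed by −0.0186 in EB. The sites of Mbd3 and of the glycosyltransferase gene Ogt did not reach 0.10 in either stage, and a second Dnmt3a site had an EB WT value alone. The 4 sites higher in ESC on this list were thus in Uhrf2, Cxxc5 and Sin3a, and its ESC median was 0.227 over 6 sites.

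The sites most like each of the 8 were found by the mean absolute difference over the columns in which it had a value. Over all 4 columns and 655 sites, Tet1 was nearest to a site of the noncoding RNA Neat1 (0.0305) and of the basement membrane gene Nid2 (0.0457), and Zfp281 to sites of Ranbp3 (0.0311) and of the histone methyltransferase gene Kmt5a (0.0354). Over 3 columns and 807 sites, Il6st upstream was nearest to Nif3l1 (0.0136) and the autophagy gene Nrbf2 (0.0200), and Tbx3 to the helicase gene Blm (0.0136) and the sterol synthesis gene Sqle (0.0198).

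The other 4 sites had 1 or 2 values. Over ESC WT and ESC KO, Il6st downstream was nearest to Prdm2 (0.00431) and AI464131 (0.00691), with 13 sites within 0.02. Over ESC WT and EB WT, Lifr was nearest to Tpd52 (0.0134) and Fat1 (0.0179), and Stat3 to Slc6a6 (0.0190) and Rabl6 (0.0245). For Tet2, with its value in ESC WT alone, 79 sites lay within 0.02, with Zfp36l1 and Sulf2 first, and the likeness marks none of them out. Of that pair Sulf2 had a KO value in ESC, at 0.0148.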

How the data were processed

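The authors deposited 1 table, in which each group has a column of cleavage efficiencies, a fraction between 0 and 1 per the file headers and values. The submitters' processing notes name STAR 2.5.3a, bedtools 2.26.0 and the build mm9 but not what each was used for. Counting, a read minimum and pooling are not given in the sources used, and the depth is unknown. The table held 0 value columns outside the 4 groups.

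Differences between columns were taken per site, with no filter and no pseudocount, in Python 3.11.15 with pandas 2.3.3; limma was planned only for values per library and was not run. The counting was tested on simulated data. Sites were matched to GENCODE M21 transcripts, at most 100 nt from the position given in the transcript and 10 Mb from that in the genome. It had to be best for 1 gene alone, and its offset between mm9 and the reference had to recur at a site of a different gene, at most 3 sites away. This named 1423 sites in 1232 genes, out of 1473 that matched 1 gene. Coordinates are the deposited mm9 ones; regions and distances are those of the matched transcript.

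All sites of the 7 genes are described. From the 3 lists, sites that differed by 0.10 between KO and WT were named, and for each of the 8 sites the 2 nearest sites of other genes. Other list members were named after their values were seen. The genes and lists were chosen with earlier results of these data known.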

Additional observations from a re-analysis of the deposited data

How the results depend on the processing

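Of 70 alternative values over the 8 sites, 56 stayed within 1.5 times the count or within 0.10 of the median given. This tally does not measure robustness, because a number of the 56 could not have moved. With 2 sites the mean equals the median, and a logit cannot reverse the sign of a difference. A match within 10 nt drops Stat3 alone, which has no KO value. The fall of a median from 0.118 to 0.0216, given below, also counts as kept. Centring each column on its median (759 complete sites) shifts every difference alike, by −0.373 in ESC, −0.266 in EB, −0.0963 between the WT columns and 0.107 for the change of the KO effect. It takes away the effect of genotype too. In size these shifts exceed the median differences over all sites, which were 0.130, 0.0638, 0.0408 and −0.0446 in that order. After centring 3 of 5 sites were higher in KO by 0.10 in ESC (median 0.123) and 1 of 2 in EB (median 0.0765), and Tbx3 turned to −0.00743 in ESC. For EB minus ESC in WT 1 site rose by 0.10, 3 of 6 were higher and the median fell from 0.118 to 0.0216; for the change of the KO effect 1 site was higher and the median was −0.0161. Only sites with all 4 values left 2 in the ESC count and, for EB minus ESC in WT, 1 up and 0 down. A size of 0.20 also left 1 up and 0 down there, and a match within 10 nt, which drops Stat3, left 0 down. On a logit scale limited to 0.01 and 0.99 the counts of higher sites did not change, and Tbx3 and Tet1 exchanged places as the smallest ESC difference. Leaving out replicates could not be done. No paired analysis was possible because the columns carry no replicate number. The unknown depth limits every value, and most of all the statements that rest on 1 or 2 sites: the EB comparison, the change of the KO effect, and the fall in Stat3.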
